A study of Rattus norvegicus with 6 samples.

Results

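The expressed long non-coding RNA (lncRNA) genes of rat vascular smooth muscle cells were taken as every row of the count tables with the biotype lncRNA and a raw count sum of at least 60 over 6 libraries. This rule found 578 rows among 2488 lncRNA rows (23.2%) and among 30945 rows in all. The libraries were made from the total RNA of primary smooth muscle cells of rat vessels, 3 labelled Negative_control and 3 labelled siRNA_ANK, and the series title calls the cells ANK-deficient. For the siRNA dose, the time after it and the age and strain of the rats, nothing is stated in the labels. Nor do the labels say whether the 3 samples of a group came from separate animals or cultures; p-values thus reflect the spread among samples alone, and this spread may be technical. Each library held 15641259 to 17441548 counts, of which 0.742% to 0.799% fell on the 578 members, and every member had a count in every library. Ankh, which encodes the progressive ankylosis protein (ANK), had counts scaled to library size (CPM) of 338, 351 and 367 under control and 84.9, 76.7 and 120 under siRNA_ANK, a log2 fold change of -1.91 ± 0.16 (SE, edgeR quasi-likelihood adjusted p = 0.00018).

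The count sum that chose the members ran from 60 to 39209 counts. Just inside the limit lay 16 rows with sums of 60 to 65, just outside it 21 rows with sums of 54 to 59, and 1042 lncRNA rows had no count. The filter on low counts kept 570 members for testing. The 8 others, with sums of 60 to 70, were not tested. Of the tested members, 11 passed the filter through 1 group only, and 10 of these were called different, so the counts of called members below describe the members and support nothing on their own.

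Long non-coding RNAs are transcripts that hold no long reading frame; most are less abundant than messenger RNAs. Many start beside a protein-coding gene and run away from it on the opposite strand, others lie downstream of one, and a number carry microRNAs or small nucleolar RNAs in their introns. In smooth muscle the best known is Carmn, the host of miR-143 and miR-145; these microRNAs favour the contractile state of the cells, and Carmn is described as a partner of the coactivator myocardin.

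The start regions of Carmn and of 2 lncRNA rows that begin beside a protein-coding gene are printed as a description, and no result below rests on them. RefSeq starts need not be those of the counted rows. In both pairs the distance between the RefSeq starts differs from the 46 and 441 bp given below for the counted rows. Each window runs from 250 bases before to 50 bases after the start in RefSeq (build GRCr8, which is not the build of the counts), 5′ to 3′ on the gene's own strand. Of the 43 LOC rows, 23 had such a window. Capitals mark a TATA box (TATAAA) or a CCAAT box (CCAAT) found on either strand; the first is in 14.2% and the second in 37.5% of all 33469 RefSeq windows of this length. Searches for an AP-1 site (TGANTCA, in 7.33%), the unfolded protein response element (TGACGTGG, in 0.595%), the endoplasmic reticulum stress element (CCAAT and CCACG at a fixed gap, in 0.0657%) and a CArG box (in 1.64%), each on both strands, found no match in these 5 windows.
Carmn (GRCr8 chr18:57389063-57389362, minus strand): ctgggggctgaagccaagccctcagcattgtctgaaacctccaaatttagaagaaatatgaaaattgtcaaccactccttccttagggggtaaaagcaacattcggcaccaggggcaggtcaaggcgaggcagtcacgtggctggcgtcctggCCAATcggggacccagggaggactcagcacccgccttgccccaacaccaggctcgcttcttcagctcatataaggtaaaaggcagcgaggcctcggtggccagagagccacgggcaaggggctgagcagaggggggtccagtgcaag
Cdkn1a (GRCr8 chr20:7150682-7150981, plus strand): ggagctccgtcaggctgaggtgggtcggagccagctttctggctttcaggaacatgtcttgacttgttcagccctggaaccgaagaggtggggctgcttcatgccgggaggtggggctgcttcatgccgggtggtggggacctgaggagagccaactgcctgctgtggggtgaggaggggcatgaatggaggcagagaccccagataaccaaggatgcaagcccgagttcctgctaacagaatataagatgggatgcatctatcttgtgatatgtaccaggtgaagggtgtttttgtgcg
LOC120098812 (GRCr8 chr20:7150720-7151019, minus strand): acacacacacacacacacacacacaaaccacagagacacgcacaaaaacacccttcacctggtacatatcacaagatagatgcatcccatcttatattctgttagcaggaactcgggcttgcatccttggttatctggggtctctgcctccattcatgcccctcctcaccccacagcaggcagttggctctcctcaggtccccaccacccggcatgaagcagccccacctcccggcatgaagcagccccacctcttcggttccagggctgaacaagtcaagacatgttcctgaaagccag
Slco2a1 (GRCr8 chr8:112467489-112467788, plus strand): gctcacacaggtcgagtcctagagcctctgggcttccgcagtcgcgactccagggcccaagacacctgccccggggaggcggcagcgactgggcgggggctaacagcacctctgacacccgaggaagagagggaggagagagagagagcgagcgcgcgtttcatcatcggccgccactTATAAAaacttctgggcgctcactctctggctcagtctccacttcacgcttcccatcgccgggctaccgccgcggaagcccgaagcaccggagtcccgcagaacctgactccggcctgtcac
LOC102549824 (GRCr8 chr8:112467434-112467733, minus strand): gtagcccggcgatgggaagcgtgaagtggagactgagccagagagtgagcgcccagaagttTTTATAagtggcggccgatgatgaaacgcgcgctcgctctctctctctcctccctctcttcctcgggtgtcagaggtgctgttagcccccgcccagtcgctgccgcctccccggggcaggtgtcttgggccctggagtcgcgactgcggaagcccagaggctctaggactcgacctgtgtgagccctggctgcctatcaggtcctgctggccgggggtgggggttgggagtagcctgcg
The windows of Cdkn1a and LOC120098812 share 262 bases on opposite strands, and those of Slco2a1 and LOC102549824 share 245 bases, so that the TATAAA letters 72 bases before the start of Slco2a1 are the reverse complement of those 189 bases before the start of LOC102549824. LOC120098812 and LOC102549824 each have a second RefSeq window that is not printed. That of LOC102549824 (chr8:112466944-112467243) shares no base with the window of Slco2a1 and has a TATAAA match 148 bases before its start. Windows of Cdkn2a, LOC102552725, Npr3 and Vgll3 were also searched and are not printed. Those of LOC102552725 and Vgll3 held CCAAT matches, and a second Vgll3 window held an AP-1 match. A match of letters is a description and not a site.

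The mature microRNAs inside the members are shown with the seed (bases 2 to 8) in capitals, from RefSeq, for the hosts described below. Carmn spans miR-143 and miR-145, and the row beside Dnttip2 spans miR-760.
rno-miR-143-3p: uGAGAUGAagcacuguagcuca
rno-miR-143-5p: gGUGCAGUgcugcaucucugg
rno-miR-145-5p: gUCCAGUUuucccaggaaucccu
rno-miR-145-3p: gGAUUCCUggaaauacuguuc
rno-miR-760-3p: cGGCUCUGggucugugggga
rno-miR-760-5p: cCCCUCAGgccaccagagcccg
These 6 mature microRNAs have 6 different seeds.

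The annotation of the rows set limits on what the name lncRNA covers here. Of the 578 members, 26 carried a gene symbol and 43 were described as an uncharacterized LOC locus, of which 29 matched a RefSeq lncRNA by number. In contrast, 85 rows carried the name or description of a protein, 25 by symbol and 60 by text, and these held 22.0% of the members' counts. Among them were Gpx3 (a secreted glutathione peroxidase), Rab32 (a small GTPase), Hilpda (a lipid droplet protein) and rows with the text of Rhob (a small GTPase), Cebpa (a transcription factor), Gas1 (a membrane growth regulator) and Timm13 (a mitochondrial import chaperone). For 25 of the 85 a protein_coding row with the same symbol also exists, in 22 cases on another chromosome, so reads of near-identical copies could be split between them and the values of such rows are uncertain. For these 85 rows the annotation goes against the label, and values are given with and without them. Retroviral or LINE text described 11 members. Of 97 lncRNA symbols on lists of known lncRNAs (snoRNA hosts, nuclear, imprinted, microRNA hosts, vascular), 6 were in the tables, none of them as a lncRNA row. The microRNA row Mir3064 had 448 counts over the 6 libraries and the other 5 at most 4 counts. Carmn was reached through its RefSeq number.

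None of the 578 members overlapped a protein_coding gene in the annotation, and nor did any of the 2488 lncRNA rows. The gap to the nearest protein_coding gene had a median of 1287 bp (quartiles 324 and 3772 bp), and 451 members (78.0%) lay within 5 kb of it. The orientations were 183 members downstream of the neighbour on the same strand, 158 convergent, 131 divergent and 106 upstream on the same strand. Whether the counting used strand is not given in the sources used here, so that reads running on from a neighbour or antisense to a member cannot be told apart from the member's own.

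Levels were low. The median member had 3.41 CPM, or 1.59 CPM per kb of annotated length, against 24.5 CPM and 7.87 CPM per kb for the protein_coding genes tested. On the per-length scale the most abundant member was the row downstream of Col8a1 (a short-chain collagen of vessel walls), at 282 CPM per kb over 6 libraries. It was followed by the row downstream of Col5a1 (a fibrillar collagen chain) at 180, the Prelid1 text row (a mitochondrial lipid carrier) at 150 and the Timm13 text row at 75.9 CPM per kb. The rows facing the ends of Dnajc3 at 70.1, Larp1 at 56.2 and Neurl1 at 53.9, and the WDR83OS text row at 52.7 CPM per kb, completed the 8 most abundant. Of these 8, 3 were called higher, 4 were called lower and the row near Larp1 was not called (160, 156 and 161 CPM against 155, 157 and 161 CPM). The call of the Prelid1 text row (-0.19 ± 0.05, adjusted p = 0.011) was lost without control replicate 1 (adjusted p = 0.052) or siRNA_ANK replicate 1 (adjusted p = 0.054).

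More members were higher than lower with siRNA_ANK, but in each direction a smaller share of them than of all genes passed the test. The gap to all genes was narrow for the higher members and wide for the lower ones. At an adjusted p under 0.05, 155 of 570 tested members (27.2%) were called, 99 higher and 56 lower, where 40.1% of all 13016 genes tested were called, 19.9% higher and 20.2% lower. Of the protein_coding genes 41.2% were called, 20.1% higher and 21.1% lower. At least 2-fold changes were called in 36 of the 570 members upward and 19 of the 570 downward, beside 4.56% and 2.58% of all genes. At this limit the members' share was thus above that of all genes in each direction. These shares were not tested against each other. The 3 values of each group did not overlap in 222 members (38.9%), against 51.1% of all genes tested. The median log2 fold change was 0.07 over the members and 0.01 over all genes. Without the rows with protein text, 128 of 486 (26.3%) were called, 89 higher and 39 lower. The rows with protein text leaned the other way, with 10 higher and 17 lower among 84.

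**Figure D1:**
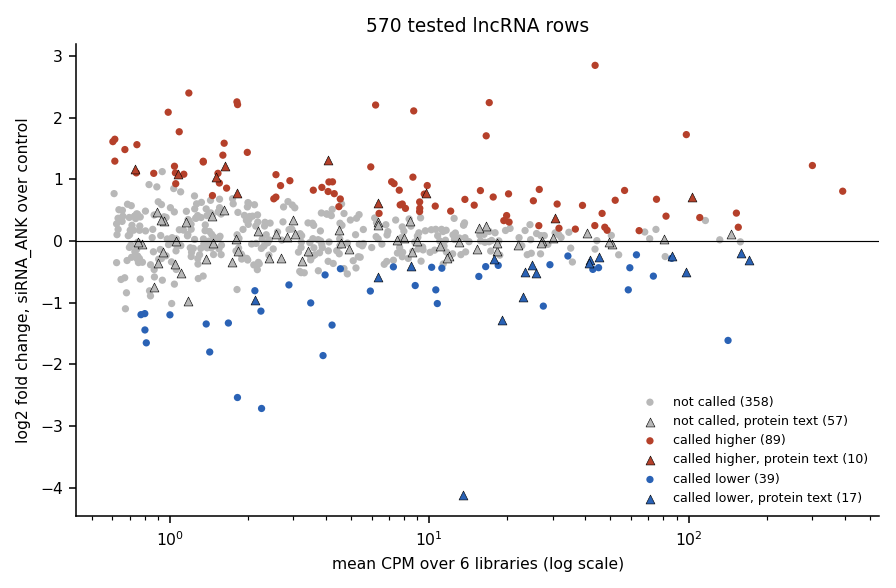
Log2 fold change of siRNA_ANK over control (y axis) against the mean CPM over 6 libraries (x axis, log scale) for the 570 tested lncRNA rows; 1 point is 1 row, triangles are rows with protein text, and red and blue mark rows called higher and lower. The Nid2 text row stands lowest, at -4.12, and the row near Npr3 highest, at 2.85.

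The share called was larger at higher levels in both kinds of gene. Under 1 CPM, 14.4% of 90 members were called, at 1 to 5 CPM 20.2% of 247, at 5 to 20 CPM 29.9% of 144, and at 20 CPM or more 55.1% of 89. Protein_coding genes gave 21.1%, 26.4%, 35.9% and 49.4% in the same ranges. At 20 CPM or more the members' share was thus above that of protein_coding genes, and below it in the 3 lower ranges; these shares were not tested against each other. The calls of the 13 members under 1 CPM rest on few counts.

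**Figure D2:**
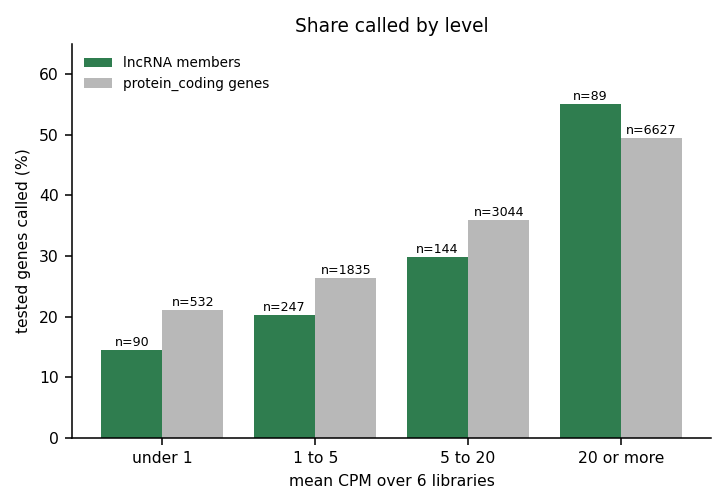
Percent of tested genes called different between the groups (y axis, from 0) by mean CPM over the 6 libraries (x axis) for lncRNA members and for protein_coding genes, with the number of genes above each bar. Shares run from 14.4% to 55.1% in the members and from 21.1% to 49.4% in protein_coding genes.

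The libraries differed within groups along the same axis. On the first principal component over all tested genes (75.9% of the variance), control replicate 2 and siRNA_ANK replicate 3 were the libraries of their groups nearest to the other group. The 99 higher members had a median deviation from the control mean of 0.66, 0.73 and 0.67 (log2) in siRNA_ANK replicates 1, 2 and 3. In control replicates 1, 2 and 3 it was -0.03, 0.05 and -0.04. The 56 lower members had -0.55, -0.58 and -0.53 in siRNA_ANK replicates 1, 2 and 3. These members were called from the same libraries, so the signs were set by the choice. Among the higher members siRNA_ANK replicate 3 did not stand below replicate 1. Without control replicate 2 and siRNA_ANK replicate 3 together, 102 members were called higher and 77 lower, and 137 of the 155 calls were shared.

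The largest rises and falls were ranked among called members with a mean of at least 1 CPM and groups that do not overlap. Their separation was thus set by the choice. The strongest rise was next to Npr3, which encodes the natriuretic peptide clearance receptor. This row (ENSRNOG00000068207, chromosome 2, 60865483 to 60868273 on the minus strand of mRatBN7.2) lies 2321 bp downstream of Npr3 on the same strand. It measured 9.96, 11.1 and 10.9 CPM in the controls, against 82.7, 81.9 and 65.2 CPM in siRNA_ANK libraries. Means were 10.6 ± 0.588 and 76.6 ± 9.89 CPM (SD, n = 3), 7.21-fold higher with siRNA_ANK (log2 fold change 2.85 ± 0.10 SE, adjusted p = 1.2e-10). Npr3 itself rose by almost the same amount, from 14, 16.6 and 11.7 to 100, 103 and 81.8 CPM (log2 fold change 2.75 ± 0.13).

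For 8 of the 9 other largest rises the nearest protein_coding gene was also called higher. The exception, which faces AABR07052523.1, is given with the opposite pairs below. Of all protein_coding genes tested, 20.1% were called higher, and these shares were not tested against each other. The 8 include the row near Cntn2, whose call supports nothing on its own, and the row near Thrb, which starts 145545 bp away. AABR07047191.1, which converges on Gdf6 (a growth and differentiation factor of the BMP family) with a gap of 685 bp, measured 5.46, 7.2 and 5.12 CPM against 28.7, 32 and 23.9 CPM. Its log2 fold change was 2.25 ± 0.14 (adjusted p = 4.2e-08), with 2.26 ± 0.13 for Gdf6. The row facing Vgll3, a cofactor of TEAD transcription factors, measured 2.31, 2.07 and 2.25 CPM against 11, 9.7 and 10 CPM (log2 fold change 2.21 ± 0.16), and Vgll3 gave 2.19 ± 0.11. Myocd encodes myocardin, the coactivator of smooth muscle contractile genes. The row 857 bp downstream of it measured 3.83, 3.05 and 2.94 CPM against 15.3, 17.8 and 9.43 CPM, a log2 fold change of 2.11 ± 0.23, with 1.63 ± 0.27 for Myocd. In both, siRNA_ANK replicate 3 was the lowest of its group.

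Less abundant rises were seen near Cntn2, an adhesion molecule of axons (2.40 ± 0.34), Thrb, a thyroid hormone receptor (2.26 ± 0.35), and Col4a3, a basement membrane collagen chain (2.21 ± 0.41). These 3 rows had control means of 0.372, 0.623 and 0.643 CPM and siRNA_ANK means of 2, 3.01 and 3.01 CPM. All controls of the row near Cntn2 (0.338, 0.403 and 0.375 CPM) were below the filter limit of 0.587 CPM. That row was tested through the siRNA_ANK libraries only, so its call and rank support nothing on their own. The row near Thrb starts 145545 bp from it, on the opposite strand. More abundant was the row 25 bp downstream of Gpc6 (a cell-surface heparan sulphate proteoglycan), with 46.2, 51.2 and 38.9 CPM against 152, 153 and 147 CPM and a log2 fold change of 1.73 ± 0.08. The row downstream of Fzd4, a Wnt receptor, measured 6.02, 8.87 and 8.5 CPM against 28, 25.5 and 22.7 CPM (1.71 ± 0.14).

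The 2 most abundant members, both downstream of collagen genes, rose less in fold but most in CPM. The row 1942 bp beyond Col8a1 (ENSRNOG00000064142, chromosome 11, 42908366 to 42909428 on the plus strand) measured 173, 196 and 171 CPM against 413, 459 and 390 CPM. Its mean rose 2.34-fold (log2 fold change 1.23 ± 0.07, adjusted p = 1.7e-08), and Col8a1 gave 1.0 ± 0.10. The row 159 bp beyond Col5a1 measured 277, 301 and 278 CPM against 482, 526 and 492 CPM (0.81 ± 0.06), while Col5a1 rose by 0.38 ± 0.06. The row facing Vldlr, the very low density lipoprotein receptor, had means of 41 ± 1.96 and 72.4 ± 0.506 CPM (SD, n = 3), a log2 fold change of 0.82 ± 0.06 against 0.46 ± 0.05 for Vldlr.

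**Figure D3:**
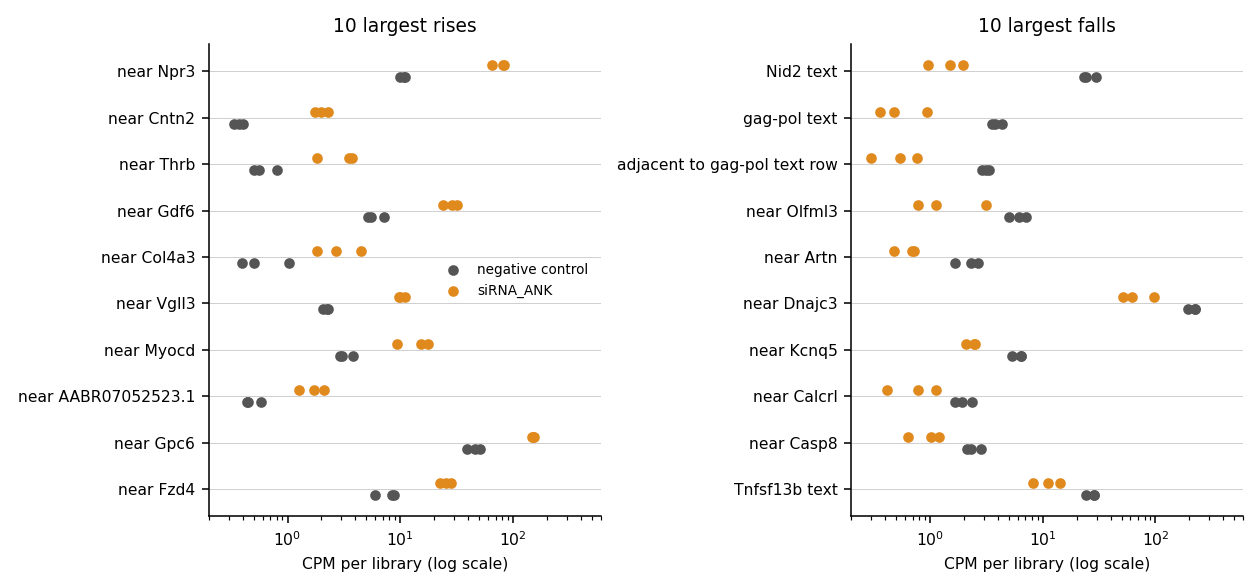
CPM in each library (x axis, log scale) for the 10 lncRNA rows with the largest rises (left) and the 10 with the largest falls (right), named by the nearest gene or by the row's text; grey points are the 3 controls and orange points the 3 siRNA_ANK libraries. Groups that do not overlap were a condition for choosing these rows.

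The deepest fall was in a row with the text of Nid2, a basement membrane nidogen. This row (ENSRNOG00000062764, chromosome 9, 538789 to 543820 on the minus strand) measured 24.4, 23.1 and 29.4 CPM in the controls, against 1.5, 0.958 and 1.96 CPM with siRNA_ANK. It was 17.4-fold lower, with a log2 fold change of -4.12 ± 0.18 (adjusted p = 9.5e-10). The protein_coding Nid2 gene on chromosome 15 was not called, with means of 237 ± 21.8 and 250.0 ± 31.3 CPM (SD, n = 3), and the nearest gene, Uxs1, lies 109839 bp away and measured 48.2 ± 1.44 and 46.6 ± 2.05 CPM. Next came a pair of neighbouring rows on chromosome 18, 1413 bp apart on the same strand, of which the second has retroviral gag-pol text. The first measured 2.87, 3.17 and 3.31 CPM against 0.54, 0.299 and 0.76 CPM (-2.54 ± 0.32), and the second 4.39, 3.57 and 3.81 CPM against 0.48, 0.359 and 0.95 CPM (-2.72 ± 0.31). A further row 4372 bp upstream of them was not called (means 0.67 and 0.732 CPM).

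The most abundant of the 10 largest falls faces the end of Dnajc3, which encodes the endoplasmic reticulum co-chaperone p58IPK. This row (ENSRNOG00000068647, chromosome 15, 96066556 to 96068581 on the minus strand) measured 225, 192 and 225 CPM against 61.8, 51.6 and 96.7 CPM. It was 3.05-fold lower (log2 fold change -1.61 ± 0.26, adjusted p = 0.0078), with siRNA_ANK replicate 3 the highest of its group, and Dnajc3 fell by 1.77 ± 0.23 on the log2 scale. The rows near Olfml3 (a secreted matrix protein, -1.86 ± 0.39), Artn (a neurotrophic factor, -1.80 ± 0.33), Kcnq5 (a potassium channel, -1.36 ± 0.19) and Calcrl (the calcitonin receptor-like receptor, -1.35 ± 0.35) each lay beside a gene that fell, by 1.09, 0.90, 1.23 and 1.38 on the log2 scale. The row 7654 bp upstream of Casp8, an initiator caspase, fell by 1.33 ± 0.30, from 2.31, 2.13 and 2.81 to 1.2, 1.02 and 0.633 CPM; Casp8 was not called (means 9.35 and 7.83 CPM). The row with the text of Tnfsf13b, the cytokine BAFF, fell by 1.28 ± 0.16, from 28.6, 24 and 28.7 to 11.1, 8.21 and 14.4 CPM, and the nearest gene, Snx31, stayed under 1 CPM in each library.

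Members and their nearest protein_coding genes were then set side by side. Both genes were tested in 503 pairs, and both were called in 88, with 81 in the same direction and 7 in opposite directions. Within 5 kb, both were called in 81 of 417 pairs, with 75 the same way and 6 opposite (92.6% the same). Protein_coding genes within 5 kb of another gave 216 pairs the same way and 127 opposite among 343 (63.0%). Without protein text, members within 5 kb gave 73 pairs the same way and 2 opposite. Over all distances, pairs with protein text gave 3 the same way and 5 opposite.

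The pairs were also read by orientation. Across the 148 tested pairs within 5 kb where the member lies downstream on the same strand, Pearson's r of the log2 fold changes was 0.76, and across 127 convergent pairs it was 0.73. It was 0.32 across 84 divergent pairs and 0.25 across 58 pairs with the member upstream, and 0.18 across 2225 pairs of protein_coding genes within 5 kb. These correlations are across genes that share the same 6 libraries and are not independent replicates, and they are given as descriptions. Convergent protein_coding pairs, which have the same geometry as the convergent members, gave r = 0.11, with 72 pairs the same way and 59 opposite. At 5 to 50 kb the members gave r = 0.21 over 74 pairs.

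**Figure D4:**
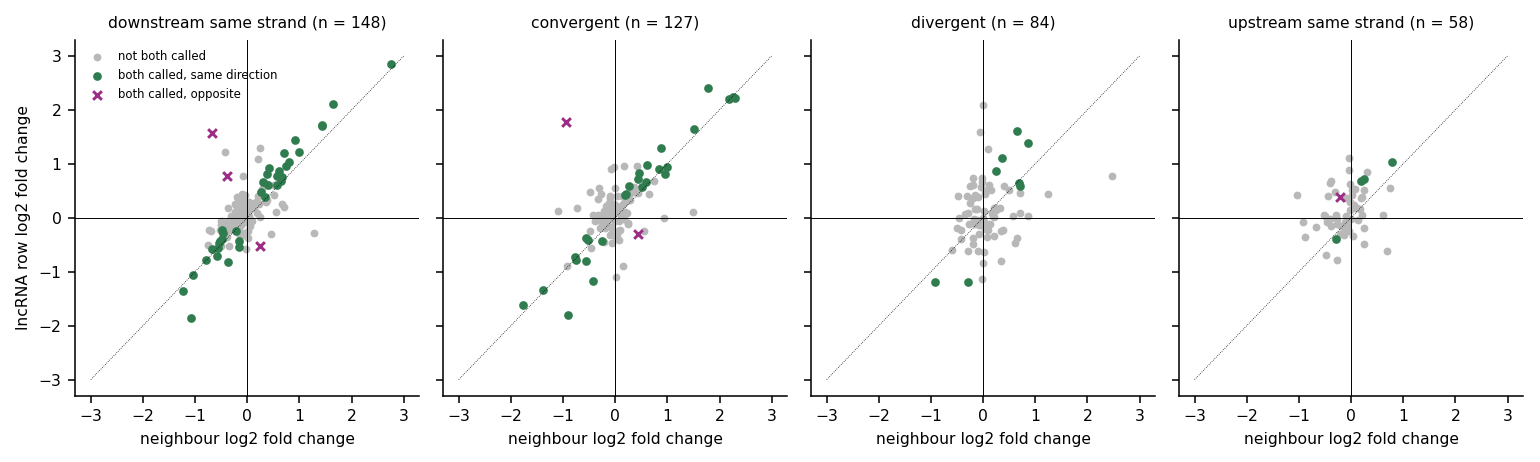
Log2 fold change of each lncRNA row (y axis) against that of its nearest protein_coding gene (x axis) for pairs within 5 kb with both tested, in 4 panels by orientation; the dotted line marks equal change. Points of the downstream and convergent panels (r = 0.76 and 0.73) lie along the line more closely than those of the divergent and upstream panels (r = 0.32 and 0.25).

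A test of the difference itself compared each member with its nearest tested protein_coding gene, on the log2 ratio within each library (limma, adjusted over all genes with a tested neighbour). The ratio differed between the groups for 105 of 570 members (18.4%), while 38.0% of all 13013 genes tested this way differed from their neighbour. Members were less abundant than protein_coding genes, and these shares were not compared at like levels. They thus do not show that members follow their neighbours more closely than other genes do. Of the members with protein text, 34 of 84 (40.5%) differed, and of the others 71 of 486 (14.6%). Among the rises described above, the rows near Col5a1, Vldlr, Gpc6 and Col8a1 rose more than their genes. Their log2 ratios changed by 0.43 ± 0.06, 0.35 ± 0.08, 0.30 ± 0.10 and 0.23 ± 0.07 (SE), all called (limma adjusted p up to 0.030). For the rows near Npr3, Gdf6 and Vgll3 the log2 ratio changed by 0.07 ± 0.12, -0.06 ± 0.13 and -0.18 ± 0.19 (SE), which were not called. Nor were those near Myocd (0.35 ± 0.19) and Fzd4 (0.28 ± 0.15). A miss of the threshold does not show that row and gene moved alike.

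Of the 6 members with the smallest adjusted p in this test, 5 carry a protein name, among them the Nid2 text row above (log2 ratio to Uxs1 of -3.70 ± 0.20). Rpl30, a ribosomal protein symbol on a lncRNA row of 4569 bp, measured 148, 148 and 124 against 146, 152 and 154 CPM, while Matn2 (a matrix protein), 878 bp away, went from 37.2 ± 1.72 to 104 ± 3.27 CPM (SD, n = 3). The log2 ratio fell by 1.36 ± 0.08 (limma adjusted p = 1.3e-09). Gpx3 measured 30.2, 29.1 and 30.4 CPM against 14.9, 16.7 and 16.4 CPM, a log2 fold change of -0.90 ± 0.08, while Tnip1, whose end lies 23 bp away, was not called, and the ratio fell by 1.04 ± 0.11. The Rhob text row rose from 76.9, 81.7 and 76 to 125, 131 and 129 CPM (0.72 ± 0.06). Its ratio to Pum2, at least 37639 bp away, rose by 0.77 ± 0.08. For Hilpda the ratio to Fam71f1, at least 5462 bp away, rose by 2.50 ± 0.21. Hilpda itself was not called (means 14.5 and 16.7 CPM), and Fam71f1 went from 6.53 ± 0.352 to 0.952 ± 0.317 CPM. A row on chromosome 20 lies at least 465211 bp from its nearest tested gene, Ascc3. It measured 60.7 ± 2.52 and 68.3 ± 2.23 CPM, while Ascc3 went from 136 ± 5.52 to 84.5 ± 7.68 CPM (ratio 0.86 ± 0.09). That row's own call (0.17 ± 0.06, adjusted p = 0.042) was lost when any 1 of 5 libraries was left out (all but control replicate 2), by DESeq2, with no filter beyond 1 count and with the replicate number as a block (adjusted p up to 0.18).

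The 6 pairs within 5 kb called in opposite directions included 4 rows with protein text. The Rnf26 text row (an E3 ligase) fell by 0.52 ± 0.09 while C1qtnf5 rose by 0.25 ± 0.05. The Timm13 text row fell by 0.31 ± 0.08 beside Lmnb2 (lamin B2), which rose by 0.45 ± 0.10. The Tcta text row rose by 0.38 ± 0.08 beside Rhoa, which fell by 0.21 ± 0.05. The fourth, with Ufsp1 text, rose by 0.78 ± 0.28 beside AABR07035787.1; it lies outside the rule for naming and was added after its values were seen. Without protein text, the row facing AABR07052523.1 rose from 0.45, 0.576 and 0.437 to 1.26, 2.1 and 1.71 CPM (1.77 ± 0.36) while that gene went from 12 ± 0.64 to 6.23 ± 0.764 CPM. All controls of this row were below the filter limit of 0.587 CPM. It was tested through the siRNA_ANK libraries only, so its call and rank support nothing on their own. The row 193 bp downstream of Tspyl2 on the X chromosome rose from 0.113, 0.403 and 0.625 to 1.5, 0.958 and 0.886 CPM beside a fall in Tspyl2 of 0.68 ± 0.10, and its call was lost without control replicate 1 (adjusted p = 0.09) or siRNA_ANK replicate 1 (adjusted p = 0.099).

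In divergent pairs, row and gene run away from each other on opposite strands, here at any distance. Of 131 such members 12 were called with their gene, all 12 in the same direction. Of these 12, 8 were among the 74 whose starts lie within 1 kb, and the others started 7254 to 145545 bp from their gene. Within 5 kb, 8 divergent members were called with their gene, all 8 the same way, while divergent pairs of protein_coding genes gave 52 pairs the same way and 16 opposite (76.5%) and r = 0.26; the 2 kinds of pair were not tested against each other. The following were picked from these 12 after their values were seen. LOC120098812, which starts 46 bp from Cdkn1a (the cell cycle inhibitor p21), measured 0.731, 0.806 and 1.12 CPM against 2.4, 3.35 and 1.2 CPM. The groups touch closely, since siRNA_ANK replicate 3 was just above the highest control; the log2 fold change was 1.39 ± 0.37 (adjusted p = 0.0085), and the call was lost without siRNA_ANK replicate 2 (1.03, adjusted p = 0.057). Cdkn1a rose from 44.2, 50.1 and 41.4 to 79.6, 89.7 and 76.9 CPM (0.86 ± 0.08).

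The row 220 bp from the start of Cdkn2a, the locus of p16 and p19ARF, measured 6.86, 7.26 and 7.5 CPM against 11.5, 11.2 and 10.9 CPM. Its groups were clearly apart, with a log2 fold change of 0.63 ± 0.12 (adjusted p = 0.0007) beside 0.69 ± 0.08 for Cdkn2a. LOC102552725, 413 bp from Adamts5 (an aggrecan-cleaving protease), measured 5.68, 6.51 and 6.37 CPM against 10.1, 9.4 and 8.36 CPM (0.59 ± 0.14), and Adamts5 rose by 0.72 ± 0.08. LOC102549824, 441 bp from Slco2a1 (a prostaglandin transporter), measured 0.619, 1.32 and 1.31 CPM against 0.719, 0.359 and 0.317 CPM. Its groups overlapped, and its call (-1.19 ± 0.45, adjusted p = 0.047) was lost by DESeq2, by limma-voom, with the replicate number as a block and when any 1 of 4 libraries was left out (control 2 and 3, siRNA_ANK 2 and 3), the adjusted p reaching 0.15. Slco2a1 fell from 44.3, 54.1 and 41.4 to 26.4, 22.5 and 25.3 CPM.

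**Figure D5:**
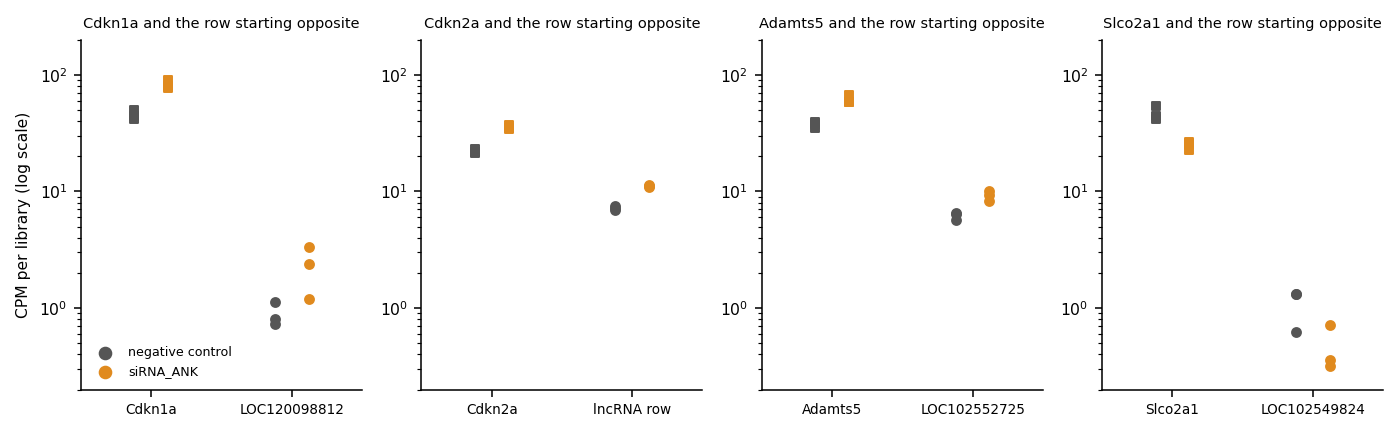
CPM in each library (y axis, log scale) for 4 protein_coding genes (squares) and the lncRNA row that starts beside each on the opposite strand (circles); grey is control and orange siRNA_ANK. Each row lies below its gene and moves to the same side, with overlapping groups only for LOC102549824 (0.619 CPM in 1 control against 0.719 CPM in 1 siRNA_ANK library).

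Carmn was the 1 member found from the lists of known lncRNAs. It (chromosome 18, 55095230 to 55118825 on the minus strand) measured 16.9, 17.4 and 17.2 CPM in the controls, against 26, 19.8 and 19.1 CPM with siRNA_ANK, so that siRNA_ANK replicate 1 stood above the rest. The log2 fold change was 0.33 ± 0.11 (adjusted p = 0.032). Without siRNA_ANK replicate 1 it was 0.17 (adjusted p = 0.21), and without any 1 of the 3 controls the call was also lost (adjusted p 0.067 to 0.099). Il17b, 22369 bp away on the other strand, rose by 0.76 ± 0.16. The rows of Mir143 and Mir145 inside Carmn had no count.

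Small RNA genes lay inside 16 members on the same strand, 30 rows in all, 7 of them microRNAs. Of these host members 4 were called higher and 1 lower, beside 19.9% higher and 20.2% lower among all genes tested. The member that spans Snord107, 681 bp downstream of Snrpn (an imprinted splicing protein gene), measured 6.13, 4.84 and 6.06 CPM against 10.4, 13.5 and 11 CPM (1.04 ± 0.15). A second member, which overlaps it on the same strand, gave 0.80 ± 0.20, and Snrpn gave 0.81 ± 0.07. The host of Mir760 beside Dnttip2 measured 1.29, 2.19 and 2.12 CPM against 2.76, 4.07 and 3.61 CPM (0.90 ± 0.26). Its call was lost without control replicate 1 (adjusted p = 0.063) or siRNA_ANK replicate 2 (adjusted p = 0.053), and Dnttip2 was not called (means 51.1 and 48.7 CPM). LOC120102992, which faces Trnau1ap and holds 4 small nucleolar RNA rows, fell from 75.8, 65.2 and 63.7 to 47.8, 46.7 and 57.2 CPM (-0.43 ± 0.09), with Trnau1ap falling by 0.25 ± 0.09. The member beside Slc3a2 that spans 7 small nucleolar RNA rows, SNORD22 among them, was not called (means 4.03 and 3.53 CPM). These host members lie outside the rule for naming and were added after their values were seen.

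Proteins that act on lncRNAs were read from lists chosen with earlier results of these data known. Each count is to be read beside the 19.9% of all genes tested that were called higher and the 20.2% called lower. Among paraspeckle and nuclear speckle proteins, which bind nuclear lncRNAs, 8 of 15 tested were called higher and none lower, with a median log2 fold change of 0.19 against 0.01 over all genes. The largest was Pspc1, from 11.5 to 27.5 CPM (1.25 ± 0.11), then Sfpq, from 92.6 to 150.0 CPM (0.70 ± 0.06), and Rbm14, from 26 to 35.6 CPM (0.45 ± 0.07). Of 13 Polycomb and chromatin partners 3 were called higher (Eed, Dnmt3a and Hnrnpu), near the background share, and none lower. The nuclear exosome factors, which degrade short-lived nuclear RNA, gave 1 higher (Zcchc8) and 2 lower (Exosc6, -0.66 ± 0.12, and Exosc5, -0.38 ± 0.11) of 16. Nonsense-mediated decay factors gave 1 higher (Eif4a3) and 2 lower (Smg5, Smg9) of 16, and the proteins of small nucleolar ribonucleoproteins 0 higher and 1 lower (Nhp2) of 11.

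Cell type markers moved with the groups too, and are read beside the same background. Of 8 smooth muscle markers 7 were called higher and none lower, and their summed level was 2595 to 3608 CPM in the controls and 5155 to 6173 CPM with siRNA_ANK. Of 6 fibroblast markers 5 were called higher (sums of 220 to 253 against 384 to 429 CPM), and both tested skeletal muscle markers, Myh4 and Acta1, were called higher (sums of 19.1 to 47.1 against 113 to 164 CPM). On the same skeletal muscle list Myod1 and Myog had no count, and Ckm had at most 0.24 CPM in any library. Of the cardiac markers 2 were tested and of the Schwann and neural markers 2, and none of these was called. Endothelial markers summed to at most 1.58 CPM in any library, with 3 of 6 listed at 0, and macrophage and leukocyte markers to at most 1.2 CPM, with 4 of 6 listed at 0. The part of the muscle and fibroblast markers in the members' changes was not tested. In bulk samples fewer cells of a type and less RNA per cell cannot be told apart.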

How the data were processed

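RNA sequencing of primary smooth muscle cells from rat vessels gave 3 Negative_control and 3 siRNA_ANK libraries. The deposited values are whole-number counts per gene, with 1 file per library, not normalized by the authors. The tools were featureCounts 1.5.0-p3 and DESeq2 and the build mRatBN7.2, per the submitters' processing notes; the aligner is not given in the sources used here, nor is the strand setting. Rows without symbol or Ensembl identifier held 0.306% to 0.339% of counts.

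The members and lists were chosen with earlier results of these data known. Counts of all genes were fitted with edgeR 4.0.16 in R 4.3.3 (TMM scaling, filterByExpr with a minimum count of 10 and total of 15, robust quasi-likelihood test, two-sided, no covariate). Adjustment was by Benjamini-Hochberg over 13016 genes, and calls are at an adjusted p under 0.05. CPM are on the TMM scale. An exact permutation test of 3 against 3 cannot go below 0.1 and was not used. No replicate pair agreed within sampling noise (chi-square per degree of freedom 2.91 to 13.1).

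The nearest protein_coding gene has the smallest gap by the coordinates of the files. Pairs were tested with limma 3.58.1 on the difference of log2(CPM + 0.5), adjusted over 13013 genes. Scripts were tested on simulated data. Named members were the 10 largest rises and 10 largest falls (groups apart, mean of at least 1 CPM), the 8 most abundant per kb, members on lists, up to 8 pairs called together within 5 kb and 5 called in opposite directions, and 6 that differ most from the neighbour. Alternatives were DESeq2 1.42.0, limma-voom, other scalings, filters, count sums, neighbour definitions and pseudocounts, a replicate block and leaving out libraries. Leaving out 2 libraries together, scaling without the 20 most abundant genes, the 1 kb distance and leaving out rows with protein text were added after seeing the data.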

Additional observations from a re-analysis of the deposited data

How the results depend on the processing

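Counts of members called, of all genes called and of pairs called together within 5 kb stayed within 1.5 times their values, and no called member that is named turned direction, under DESeq2, limma-voom, both other scalings, no filter beyond 1 count and each library left out, except as follows. A filter at a mean of 5 CPM, which tests fewer members, left 58 members higher and 36 lower, and 49 pairs called the same way and 3 opposite. With both genes at a mean of at least 5 CPM, 54 members differed from their neighbour. A count sum of at least 300 left 64 members higher. With the neighbour nearest by the distance between starts, 35 pairs within 5 kb were called the same way, and up to a gap of 1 kb 42 were; without rows with protein text, 2 were opposite. With each library left out in turn, 78 to 96 members were higher and 44 to 71 lower, 1991 to 2874 genes in all were higher and 2062 to 2976 lower, 54 to 87 pairs were called the same way and 5 to 8 opposite, and 70 to 112 members differed from their neighbour. Of 659 values of 45 single members under alternatives, 27 lost the call and 0 called ones turned direction.

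The same replicate numbers did not pair the samples (correlations of deviations -0.03, 0.08 and 0.05). With the replicate number as a block, 99 members were higher and 58 lower, 2579 genes in all higher and 2631 lower, 74 pairs the same way and 6 opposite, and 111 members differed from their neighbour; 147 of the 155 member calls were shared. DESeq2 shared 127. Depth limits the members under 1 CPM most, where 1 library holds fewer than 20 counts.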

Other observations

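Of the 578 members, 48 overlapped another member and 75 lay within 5 kb of one, so these are not independent rows. Facing the end of Klhdc10 (a substrate adaptor of an E3 ligase), 2 members that overlap on opposite strands fell by 0.41 ± 0.09 and 0.43 ± 0.08 on the log2 scale (SE), with means of 18.9 to 14.2 CPM and 51.7 to 38.3 CPM, and Klhdc10 fell by 0.52 ± 0.10. In Btbd1's upstream region, 1 member rose by 1.10 ± 0.31 while Btbd1 was not called. These rows were chosen after their values were seen.

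Of 11 members with retroviral or LINE text, 6 were called (54.5%, against 40.1% of all genes tested), 3 higher and 3 lower. Besides the gag-pol row, 2 rows with Pol text on the X chromosome fell, from 4.67 to 2.32 CPM (-1.0 ± 0.21) and from 1.23 to 0.391 CPM (-1.65 ± 0.59). A row on chromosome 1 with env text rose from 5.52 to 9.82 CPM (0.83 ± 0.16), while a member that overlaps it on the same strand was not called (means 9.16 and 8.14 CPM). Such sequences are repeated in the genome, so reads can be shared between copies.

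The 3 rows with the text of Golga4, a golgin of the trans-Golgi network, lie on chromosome 8 in a stretch of 50022 bp and were each called lower, by 0.58 ± 0.20, 0.50 ± 0.06 and 0.35 ± 0.07 on the log2 scale. The most abundant of them measured 117, 108 and 119 CPM in the controls, against 78.9, 79.4 and 84.3 CPM with siRNA_ANK. The nearest protein_coding rows, Itga9 and Eomes, stayed under 1 CPM in each library. Cebpa text marked a further row that fell, from 27.3 ± 0.585 to 19.4 ± 2.18 CPM (SD, n = 3, -0.50 ± 0.09), and Gas1 text one that rose, from 2.33 ± 0.523 to 5.85 ± 0.74 CPM (1.32 ± 0.21).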
